A study of Homo sapiens with 11 samples.

Results

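Interferon-stimulated genes were examined in RT4 cells, an established line from a human bladder papilloma, as they grew on Matrigel, which the study uses as a cancer-remodeled extracellular matrix (crECM), or on plastic. The genes came from a list of 43 interferon-stimulated genes, and a gene was kept when the annotation of the array held a probe for it under its present or an older symbol. The array held 39 of them with 41 probes, of 14912 genes in all. STAT2, IFIT2, IFITM3 and TAP1 had no probe here. There were 9 arrays of cells on crECM, 1 each at 12 hours and on days 1, 2, 3, 4, 6, 7, 8 and 9 after transfer from plastic, and 2 arrays of cells on plastic, labeled replicates 1 and 2. All cells were untreated RT4 cells, with no interferon added in any label, and the protocols give McCoys medium with fetal calf serum for the cultures. The crECM arrays are a time course with a single array at each time, and the labels do not say whether the plastic arrays came from separate cultures, so p-values measure only the spread between these arrays.

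Interferons are secreted proteins that bind receptors at the cell surface and, through the kinases of the JAK family, activate STAT proteins. Type I interferon leads to the complex ISGF3, of which STAT2 and IRF9 are parts and which binds a promoter element called ISRE, while type II interferon acts through an element called GAS. The induced proteins block viruses by binding or degrading foreign RNA, by holding virions at membranes, or by tagging proteins with ISG15, and epithelial cells such as urothelium can make many of them.

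The ISRE is shown first in the promoters of genes whose highest crECM value fell on day 7 or 8, the pattern described further on. In the 250 bases before the start, the letters GAAA, any 2 bases and GAAA again, read on either strand, were found for 20 of the 30 genes that the RefSeq promoter table of GRCh38.p14 holds, in 23 of their 43 promoters (53.5%), against 1061 of all 35116 promoters (3.02%). The letters TTCNNNGAA of a GAS were found for 10 of the 30 genes, in 11 of their 43 promoters, against 2306 of all 35116 promoters (6.57%). GBP2, IFITM2, IRF7, MX2, OAS2, OASL, PML, UBA7 and USP18 were not matched in the table. Capitals mark matches to the ISRE letters on the strand of the gene or, where they begin with TTTC, on the opposite strand. Runs longer than 10 capitals are overlapping matches. A match is a description of letters and not a site shown to be bound.
IFI6, chr1:27672256-27672368, minus strand: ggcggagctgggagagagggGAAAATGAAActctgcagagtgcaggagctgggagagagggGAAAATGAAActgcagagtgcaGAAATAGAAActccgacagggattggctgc
IFIH1, chr2:162318685-162318863, minus strand: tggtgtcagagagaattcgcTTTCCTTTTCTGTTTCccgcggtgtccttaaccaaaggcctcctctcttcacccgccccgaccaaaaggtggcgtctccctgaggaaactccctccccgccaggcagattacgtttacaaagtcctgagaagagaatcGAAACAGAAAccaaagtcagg
OAS3, chr12:112938311-112938473, plus strand: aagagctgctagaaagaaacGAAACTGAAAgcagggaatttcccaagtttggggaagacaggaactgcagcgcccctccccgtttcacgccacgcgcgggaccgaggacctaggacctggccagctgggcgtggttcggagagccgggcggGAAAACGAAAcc
IFIT3, chr10:89332415-89332507, plus strand, 1 of its 2 starts: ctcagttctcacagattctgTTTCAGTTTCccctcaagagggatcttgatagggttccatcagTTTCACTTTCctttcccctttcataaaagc
RSAD2, chr2:6877612-6877661, plus strand, 1 of its 2 starts: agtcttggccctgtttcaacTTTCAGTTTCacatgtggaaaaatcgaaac
MX1, chr21:41431834-41431883, plus strand, 1 of its 3 starts: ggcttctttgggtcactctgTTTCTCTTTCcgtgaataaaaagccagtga
IFI44L, chr1:78620264-78620404, plus strand: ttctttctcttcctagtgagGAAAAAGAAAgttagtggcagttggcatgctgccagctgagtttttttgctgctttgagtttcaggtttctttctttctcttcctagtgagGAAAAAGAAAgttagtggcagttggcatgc
IFI6 and IFIH1 each had 3 matches, OAS3, IFIT3 and IFI44L had 2 in the windows shown, and RSAD2 and MX1 had 1 at the start shown and none at their other starts. The promoters shown are ones with a match. A match was not particular to genes highest on day 7 or 8. ISG15, IFIT1, IFI27, PARP9 and PARP14, with their highest crECM value at 12 hours, also had matches, and XAF1 did not. The table gave no match for 10 genes, among them EIF2AK2 and XAF1, and OAS1, IRF9, IFI16 and SP100, which also had their highest crECM value on day 7 or 8.

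Values are given in SD, the number of standard deviations of the noise peak of an array above its zero point, and a value above 3 SD is read as above noise. The raw median intensity was 224 to 482 on the crECM arrays and 162 and 140.45 on the plastic arrays. Of all probes rebuilt from raw values, 76.6% to 85.4% lay above 3 SD on the crECM arrays, against 53.4% and 44.6% on the plastic arrays, while in the deposited values, which were adjusted by regression, the shares were 83.9% to 86.6% on crECM and 86.4% and 85.2% on plastic. Substrate and array intensity cannot be told apart in this design. The 12 hours and day 7 arrays had the lowest raw medians of the crECM arrays, 224 and 250. Of the epithelial and urothelial markers, 8 of 10 averaged above 3 SD on crECM and 10 of 10 on plastic. Of the leukocyte markers, 7 of 7 averaged above 3 SD on crECM and 5 of 7 on plastic, with summed levels of 111 to 149 SD on crECM and 93.1 and 98.0 SD on plastic, and CD3D and LYZ were at the lowest value of both plastic arrays. CD3E, a chain of the T cell receptor complex, measured 26.8 to 37.0 SD on crECM, and 5.31 and 5.09 SD on plastic, and was called higher (log2 2.64, adjusted p = 1.38e-08). CD3D, another chain, measured 5.18 to 14.9 SD on crECM and was also called higher (log2 1.67 against the floor of 3 SD, adjusted p = 0.00481). CD68 was called lower, at 14.8 to 22.4 SD on crECM, and 27.0 and 24.1 SD on plastic (log2 -0.48, adjusted p = 0.0331). Of the 7 leukocyte markers, 2 were called higher, 1 lower and 4 not. PTPRC, carried by leukocytes in general, measured 25.5 to 33.0 SD on crECM and 32.7 and 34.0 SD on plastic. Above 3 SD by the mean were 5 of 6 fibroblast markers on each substrate and 3 of 4 endothelial markers on crECM against 2 of 4 on plastic. Of all probes, 82.9% were so on crECM and 84.8% on plastic. Of 9 epithelial and urothelial markers tested, 1 was called lower (CDH1). Of 6 fibroblast markers 2 were called higher and 2 lower, and of 4 endothelial markers 2 higher and 1 lower. Of all probes, 22.8% were called higher and 22.4% lower. The part of these markers in the results was not tested. In bulk RNA, more cells expressing a gene and more RNA per cell cannot be told apart.

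Most interferon-stimulated genes on the array measured above noise on both substrates. PTPRC, a leukocyte marker, also did so on every array, so a value above noise is not read here as proof of expression. Above 3 SD on all 11 arrays were 25 of the 39 genes, on no array 2 (IFI35 and IFITM1), on 1 array 3 (IRF7, IFI44 and SP110) and on 2 to 10 arrays 9. The means were above 3 SD for 30 of the 39 genes on crECM and for 28 on plastic, against 82.9% and 84.8% of all probes. EIF2AK2, IFI27, IFITM2 and XAF1 averaged above noise on crECM and not on plastic, and ISG15 and IFIT1 averaged above noise on plastic and not on crECM. This count moved with the scaling. In values rebuilt from raw intensities, 29 genes averaged above 3 SD on crECM and 20 on plastic, against 80.7% and 64.0% of all probes. On crECM alone were 9, namely EIF2AK2, USP18, IFI27, IFI44L, IFITM2, RSAD2, TAP2, XAF1 and PML, and on plastic alone 0. At a threshold of 5 SD the counts were 30 on crECM and 24 on plastic in the deposited values, against 81.6% and 81.7% of all probes. In the rebuilt values they were 27 and 17, against 75.4% and 55.2%. ISG15 and IFIT1 were above 3 SD on no array in the rebuilt values. Their raw plastic intensities, 26.6 and 8.4 for ISG15 and 13.9 and 32.9 for IFIT1, lay near or below the noise peaks of those arrays, at 27.8 and 29.4. IFI35, IFI44, IFITM1, IRF7 and SP110 were not above 3 SD on at least 2 arrays and were not tested, which left 34.

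**Figure D1:**
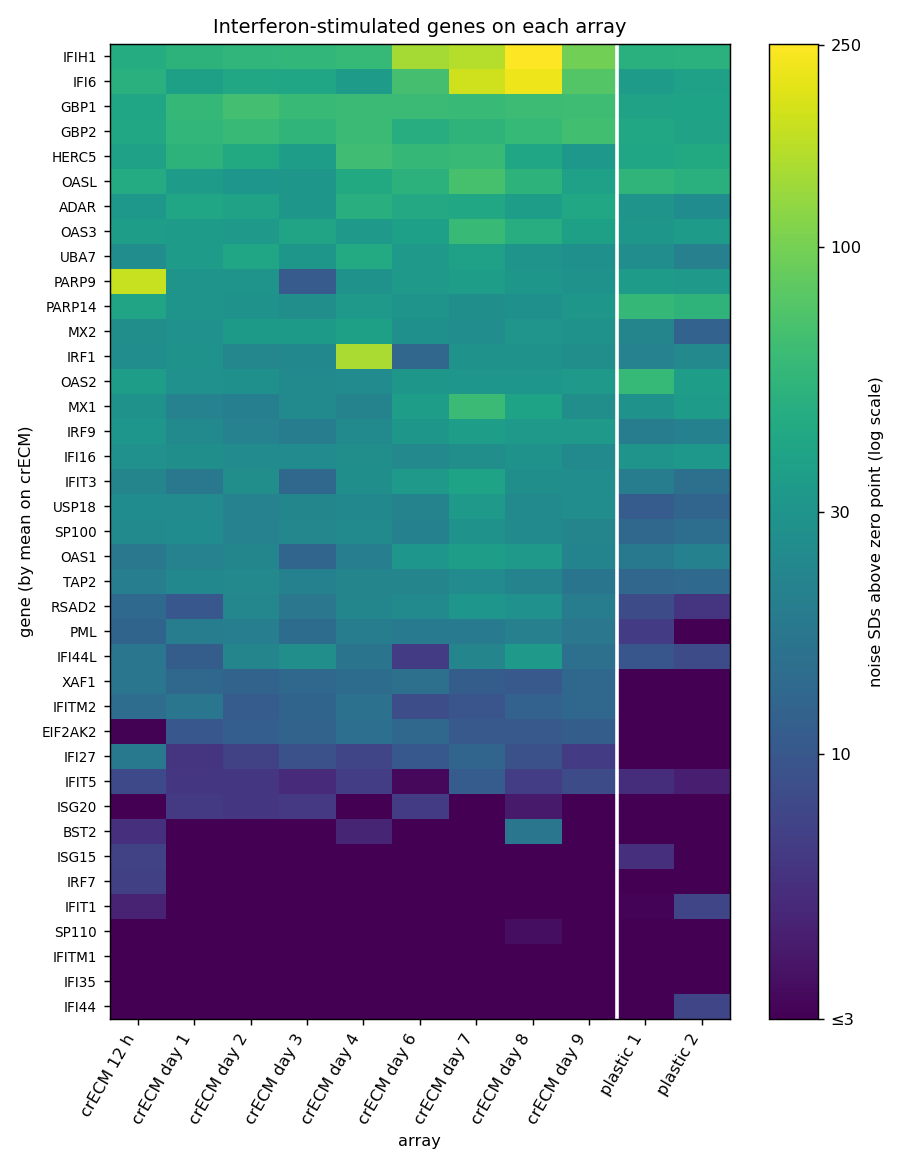
Level of 39 interferon-stimulated genes (rows, ordered by their mean on crECM) on 9 crECM arrays and 2 plastic arrays (columns). Color gives the value in SD on a log scale, with 3 SD or less in the darkest color. XAF1, IFITM2, EIF2AK2 and IFI27 are darkest on both plastic arrays, and IFIH1 and IFI6 are brighter on days 7 and 8 than on their other arrays. Levels of different genes are not comparable, since each has its own probe.

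The first comparison asks which interferon-stimulated genes respond to crECM. More of them were higher than lower on crECM. Of the 34 tested, 14 rose, 2 fell and 18 were not called (limma, Benjamini-Hochberg adjusted p under 0.05). The called share was 47.1%, against 45.2% of all 21480 probes tested. Higher were 41.2% of the genes against 22.8% of all probes, and lower were 5.88% against 22.4%. The median log2 change was 0.50 over the 34 genes and 0.06 over all probes. All 9 crECM arrays lay above both plastic arrays for 12 genes, against 20.8% of all probes, and below both for 3, against 24.4% of all probes. The split moved with the scaling of the arrays. It was 18 higher and 2 lower of 30 in values rebuilt from raw intensities, 27 and 0 of 31 without the regression and 7 and 2 of 29 after quantile normalization. Over all probes, the counts were 8384 higher and 2264 lower (55.1% called), 15883 and 53 (81.6%), and 2336 and 2494 (25.8%). Without the regression, nearly all called probes of the array were thus higher. The median over all probes was then 0.42, 1.27 and 0.01, and the median of the genes exceeded it by 0.38, 0.24 and 0.33, compared with 0.45 in the deposited values.

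Of the 7 tested genes that act at membranes and in trafficking, 4 rose (IFITM2, IFI27, RSAD2 and MX2) and none fell. IFITM2, which blocks entry of viruses from endosomes, measured 8.52 to 17.1 SD on crECM with a median of 12.5 SD, and 0.823 and 0.00412 SD on plastic. With plastic set to the floor of 3 SD it was higher on crECM by 2.06 ± 0.25 (SE) on the log2 scale (adjusted p = 6.08e-05). The size rests on the scaling and the floor, with a log2 change of 0.82 in the rebuilt values (adjusted p = 0.012), 1.32 with a floor of 5 SD and 0.26 after quantile normalization. IFI27, a small hydrophobic protein of mitochondria and the nuclear envelope, measured 5.92 to 18.0 SD on crECM with a median of 8.93 SD, and 2.79 and 2.65 SD on plastic. The groups did not overlap, and the log2 change against the floor was 1.59 ± 0.35 (adjusted p = 0.00332), compared with 0.43 in the rebuilt values, 0.85 with a floor of 5 SD (adjusted p = 0.065) and 0.19 after quantile normalization. RSAD2, the antiviral radical SAM enzyme viperin, measured 9.98 to 30.8 SD on crECM with a median of 22.9 SD, and 8.26 and 5.98 SD on plastic. It was 2.86-fold higher (log2 1.52 ± 0.37, adjusted p = 0.00647) with every crECM array above both plastic arrays. MX2, a dynamin-like GTPase that restricts lentiviruses, measured 26.2 to 37.1 SD on crECM with a median of 28.5 SD, and 22.5 and 12.0 SD on plastic. Its log2 change was 0.87 ± 0.20 (adjusted p = 0.0044), and 0.41 with an adjusted p of 0.118 without plastic replicate 2. RSAD2 also lost its call without that array (adjusted p = 0.107). The calls of IFITM2, IFI27 and RSAD2 were lost after quantile normalization, with adjusted p of 0.473, 0.633 and 0.0924, and that of IFI27 also in the rebuilt values (adjusted p = 0.173).

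Not called in this group were BST2, which tethers budding virions, IFI6 and MX1. BST2 was above 3 SD on 3 crECM arrays, with 5.54 SD at 12 hours, 4.76 SD on day 4 and 17.0 SD on day 8, and on neither plastic array.

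Genes of RNA binding and degradation were mostly not called, with 2 higher and 1 lower of 11 tested. EIF2AK2, the kinase PKR that stops translation when it binds double-stranded RNA, measured 3.06 to 15.0 SD on crECM with a median of 11.1 SD. On plastic it measured 0.00307 and 0.00412 SD, the lowest value of each array. The log2 change against the floor was 1.73 ± 0.46 (adjusted p = 0.00947). It was 0.67 in the rebuilt values (adjusted p = 0.032) and 0.09 after quantile normalization. Without plastic replicate 1 or 2 its change was the same and its adjusted p was 0.0794 or 0.087. After quantile normalization, its adjusted p was 0.619. ADAR, which edits adenosines in double-stranded RNA, measured 31.1 to 49.3 SD on crECM with a median of 40.9 SD, and 29.7 and 25.6 SD on plastic, and rose with a log2 change of 0.50 ± 0.16 (adjusted p = 0.0221). It was not called without plastic replicate 1 or 2 (adjusted p of 0.064 and 0.226).

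OAS2, one of the synthetases whose product activates the RNA-degrading enzyme RNase L, measured 25.1 to 35.2 SD on crECM with a median of 30.7 SD, and 58.7 and 35.8 SD on plastic. All crECM values were lower than both plastic values, and the log2 change was -0.64 ± 0.17 (adjusted p = 0.00958). Plastic replicate 1 carried much of this. Without it the log2 change was -0.28 with an adjusted p of 0.239, and without the regression of the arrays the sign turned, with a log2 change of 0.47. The other synthetases OAS1, OAS3 and OASL had log2 changes of 0.23, 0.23 and -0.29 and were not called. Among the IFIT proteins, which bind foreign RNA ends, the log2 change was 0.51 for IFIT3 (adjusted p = 0.227) and 0.42 for IFIT5 (adjusted p = 0.325). IFIT1 was above 3 SD on crECM at 12 hours alone, with 4.66 SD, and measured 3.14 and 7.62 SD on plastic (log2 -0.63 ± 0.26, adjusted p = 0.0643). ISG20, an exonuclease, measured 6.06 to 6.64 SD on days 1, 2, 3 and 6 and 4.11 SD on day 8, was under 3 SD on the other crECM arrays and on plastic, and was not called (adjusted p = 0.256).

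Of the genes of the ISG15 pathway, 2 of 4 tested rose. USP18, the protease that removes ISG15 from proteins and holds back signaling at the type I interferon receptor, measured 21.4 to 32.3 SD on crECM with a median of 24.5 SD, and 10.97 and 12.6 SD on plastic. The lowest crECM value was above both plastic values, and USP18 was 2.10-fold higher (log2 1.07 ± 0.15, adjusted p = 0.00017). UBA7, the enzyme that activates ISG15, measured 26.2 to 45.2 SD on crECM with a median of 32.6 SD, and 26.3 and 20.5 SD on plastic, with a log2 change of 0.53 ± 0.19 (adjusted p = 0.0386). It lost its call without plastic replicate 1 or 2 (adjusted p of 0.0653 and 0.364). ISG15 itself was under 3 SD on all crECM arrays except 12 hours, where it measured 7.14 SD, and measured 5.54 and 2.67 SD on plastic (log2 -0.30 ± 0.32, adjusted p = 0.458). The ligase HERC5 measured 31.6 to 64.9 SD on crECM and 40.7 and 44.0 SD on plastic and was not called.

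Among genes of nuclear bodies and DNA sensing, PML and SP100 rose, of 3 tested. PML, which organizes nuclear bodies, measured 12.4 to 20.6 SD on crECM with a median of 18.8 SD, and 6.60 and 2.78 SD on plastic. Its log2 change, with plastic replicate 2 at the floor, was 1.99 ± 0.28 (adjusted p = 0.000179), and 1.28 in the rebuilt values and 0.96 after quantile normalization. SP100, another component of these bodies, measured 21.0 to 28.7 SD on crECM with a median of 24.4 SD, and 13.3 and 15.0 SD on plastic, and was 1.69-fold higher (log2 0.76 ± 0.13, adjusted p = 0.000731). In both genes every crECM array exceeded both plastic arrays. The DNA sensor IFI16 ran the other way with all crECM values, 24.1 to 28.6 SD, below the plastic values of 29.8 and 31.5 SD, and was not called (log2 -0.22 ± 0.09, adjusted p = 0.0576).

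The remaining groups were small. XAF1, a partner of the apoptosis inhibitor XIAP, had the lowest adjusted p of the 34 genes. It measured 10.3 to 17.2 SD on crECM with a median of 13.3 SD, and 0.00307 and 0.00412 SD on plastic, the lowest value of each array. The log2 change of XAF1 against the floor was 2.14 ± 0.20 (adjusted p = 5.69e-06). It was 0.91 in the rebuilt values (adjusted p = 0.00156), 1.40 with a floor of 5 SD and 0.30 after quantile normalization (adjusted p = 0.364). TAP2, a subunit of the transporter that moves peptides to MHC class I, measured 16.9 to 25.5 SD on crECM with a median of 22.4 SD, and 12.9 and 13.5 SD on plastic, without overlap (log2 0.73 ± 0.15, adjusted p = 0.00255). Quantile normalization gave an adjusted p of 0.17. GBP1, a GTPase that attacks the membranes of intracellular pathogens, measured 40.9 to 66.5 SD on crECM with a median of 61.3 SD, and 38.2 and 39.2 SD on plastic (log2 0.60 ± 0.14, adjusted p = 0.00504). Its adjusted p without plastic replicate 1 or 2 was 0.0574 or 0.0518. GBP2 rose by 0.45 ± 0.14 on the log2 scale (adjusted p = 0.0227) with the probe used, which measured 42.2 to 65.7 SD on crECM and 42.4 and 38.3 SD on plastic, while its other probe had a log2 change of -0.08. Without plastic replicate 1 or 2, GBP2 was not called (adjusted p of 0.0788 and 0.205).

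PARP14, which attaches ADP-ribose to proteins, was the gene with the lowest adjusted p among those that fell. It measured 26.9 to 39.5 SD on crECM with a median of 29.5 SD, and 57.0 and 53.1 SD on plastic. PARP14 was 1.82-fold lower on crECM (log2 -0.86 ± 0.13, adjusted p = 0.000253), and without the regression its log2 change was 0.077. Its neighbor PARP9, which acts with the ligase DTX3L, was not called (log2 -0.01 ± 0.68, adjusted p = 0.989). The factors IRF1 and IRF9 were not called either. IRF9, the DNA-binding part of ISGF3, measured 19.6 to 36.1 SD on crECM with a median of 30.8 SD, and 19.3 and 21.1 SD on plastic (log2 0.45 ± 0.22, adjusted p = 0.111), with 8 of 9 crECM arrays above both plastic arrays. In the rebuilt values IRF9 was called, with a log2 change of 0.99 (adjusted p = 0.000721). IRF1 measured 142 SD on day 4 and 12.8 to 29.2 SD on the other crECM arrays, and 21.4 and 24.3 SD on plastic.

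PML, SP100, USP18 and PARP14 were the 4 of the 16 called genes that remained called in the same direction in the rebuilt values, after quantile normalization, without either plastic array and without the 12 hours and day 7 arrays. Without the regression, PML, SP100 and USP18 were also called higher, while PARP14 was not called (log2 0.077, adjusted p = 0.726). All 16 called genes kept their call without the 12 hours and day 7 arrays. Without plastic replicate 1, the median log2 change was 0.58 over the 34 genes and 0.06 over all probes. Without plastic replicate 2, the medians were 0.43 and 0.04.

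**Figure D2:**
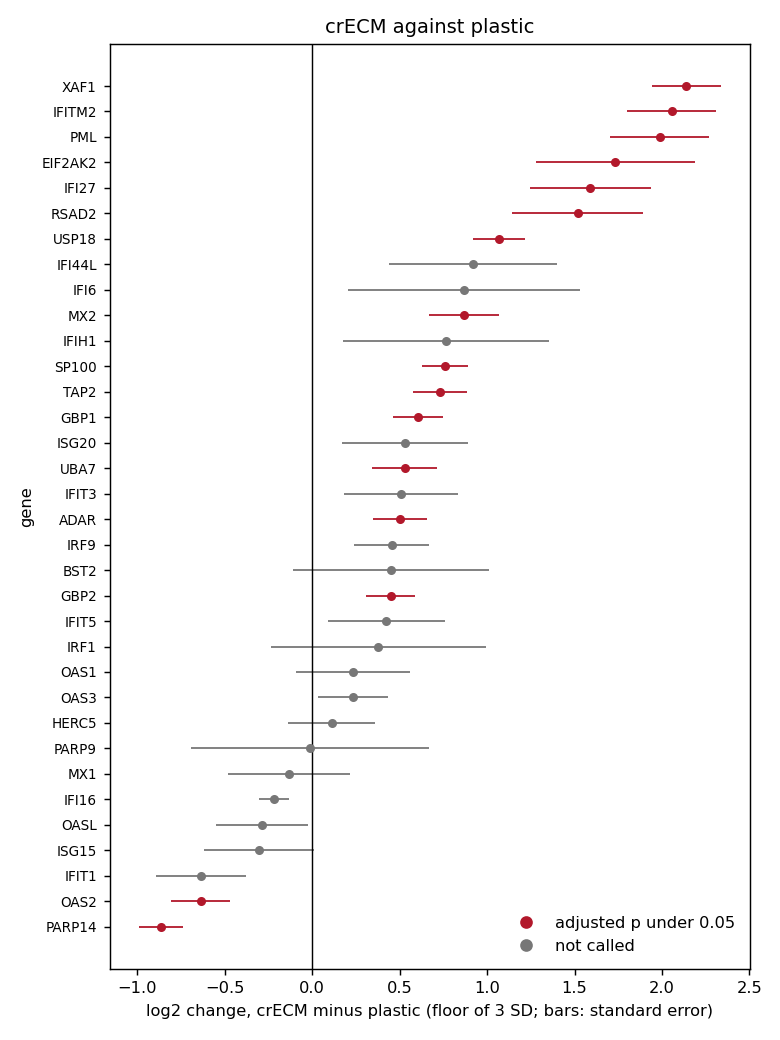
Log2 change between crECM (9 arrays) and plastic (2 arrays) of the 34 tested genes, with bars for the standard error and red for an adjusted p under 0.05. The 14 higher genes run between 0.45 and 2.14, and OAS2 and PARP14 are the 2 lower genes, whose direction turns without the regression of the arrays.

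The second question was how these genes moved over time on crECM. Interferon-stimulated genes often had their highest crECM value on day 7 or 8. Day 7 held the highest value of 11 of the 34 genes (32.4%), namely IFIT3, IFIT5, IRF9, MX1, OAS1, OAS3, OASL, RSAD2, SP100, TAP2 and USP18, against 6.53% of the 20183 probes that were above 3 SD on crECM. Days 7 and 8 together held 17, against 17.6% of those probes. The day 8 genes were BST2, IFI16, IFI44L, IFI6, IFIH1 and PML. In rebuilt values the count for days 7 and 8 was 16 of 32, against 14.5%. In raw intensities, which are not adjusted for array brightness, MX1 alone of the 11 day 7 genes was highest on day 7. The day 7 peaks of the others thus appear only after scaling. The raw median was 250 on day 7 and 338 to 482 on the other days from day 1 on. How many of all probes were highest on day 7 in raw intensities was not counted. The raw count is therefore not read as a trait of these genes. The 12 hours array held 7 genes (20.6%), against 21.6% of those probes. The days hold 1 array each, and the genes on an array share its RNA and hybridization, so these counts are descriptions and were not tested. The day 7 array had 76.6% of its rebuilt probes above 3 SD, the lowest share of the crECM arrays, and the part of this in the counts was not tested.

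**Figure D3:**
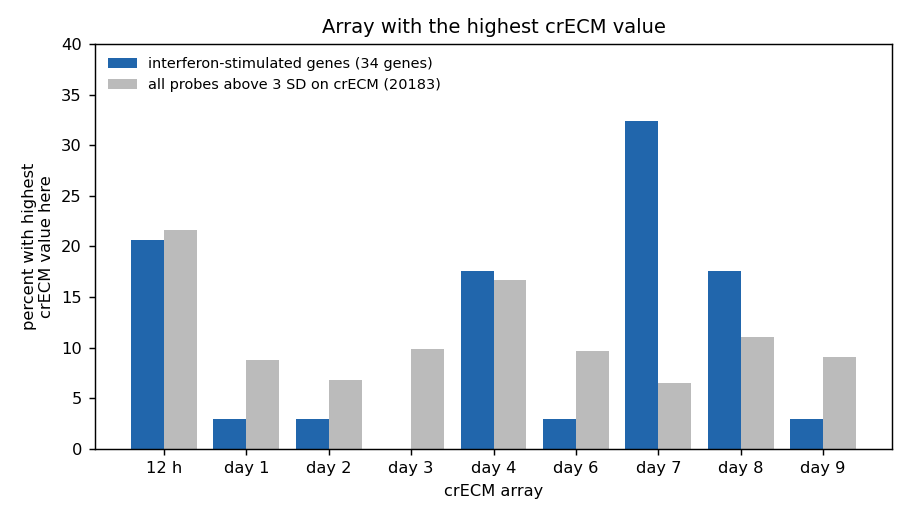
Percent of the 34 interferon-stimulated genes (left bars, blue) and of the 20183 probes above 3 SD on crECM (right bars, gray) whose highest crECM value was on the array shown. Day 7 holds 32.4% of the genes and 6.53% of the probes.

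The changes over time differed in size from gene to gene, and the genes described in this paragraph were chosen after their values were seen. IFI6, which stabilizes mitochondria and blocks flavivirus replication, measured 34.4 to 49.8 SD from 12 hours to day 4, then 68.5 SD on day 6, 184 SD on day 7, 225 SD on day 8 and 76.3 SD on day 9. On plastic it measured 34.8 and 37.5 SD. The levels on days 7 and 8 were 3.69 and 4.52 times the crECM median. The same days stood out in the raw intensities, with 2197 and 2538, compared with 451 to 1041 on the other crECM arrays and 319 and 321 on plastic. IFIH1, the cytoplasmic sensor MDA5 of long double-stranded RNA, stayed at 46.8 to 57.9 SD until day 4 and measured 137, 153, 271 and 97.8 SD on days 6, 7, 8 and 9, with 50.1 and 50.4 SD on plastic. Its other probe varied much less, at 28.3 to 36.7 SD from 12 hours to day 4. It measured 38.2, 38.3, 40.1 and 29.7 SD on days 6, 7, 8 and 9, and 38.8 and 39.6 SD on plastic. Both probes were thus highest on day 8, but values far above plastic on days 6 to 9 were seen with 1 of the 2.

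Some genes of the MX and OAS families varied less and were highest on day 7. MX1, a GTPase against influenza viruses, measured 61.6 SD on day 7 and 39.0 SD on day 8, with 20.3 to 35.0 SD on the other crECM arrays and 29.1 and 34.9 SD on plastic. OAS3 measured 60.5 SD on day 7 and 47.6 SD on day 8, with 32.2 to 39.5 SD on the other crECM arrays and 31.4 and 34.7 SD on plastic. OASL, an OAS relative without synthetase activity, measured 69.5 SD on day 7 and 30.6 to 53.0 SD on the other crECM arrays, and 54.5 and 49.9 SD on plastic. For these genes the day 7 value in SD was above every other crECM value and above both plastic values. In raw intensity, MX1 was also highest on day 7, at 686. OAS3 measured 673 on day 7, under 704 on day 3 and 676 on day 8. OASL measured 779 on day 7, under 823 on day 6. OAS2 did not share the peak, at 31.0 SD on day 7, nor did MX2, whose 26.2 SD on day 7 was its lowest crECM value.

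In the test of day 7 against the other days, with the 12 hours array kept apart, 0 of 34 genes were called, against 2.38% of all probes (0.661% higher, 1.72% lower). At an unadjusted p under 0.05 there were 6 genes, all higher on day 7, against 8.26% of all probes. These were MX1, with a log2 change of 1.23 ± 0.34 (adjusted p = 0.147), OAS3, with 0.72 ± 0.19 (adjusted p = 0.12), and IFIT5, OASL, IFI27 and USP18, with adjusted p of 0.319 to 0.591. The log2 change of IFI6 was 1.63 ± 0.84 (adjusted p = 0.766), where the other days include the higher value of day 8. The fit has 1 array on day 7, which is assumed to vary like the others. It called 1 gene higher after quantile normalization and 3 lower without the regression.

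**Figure D4:**
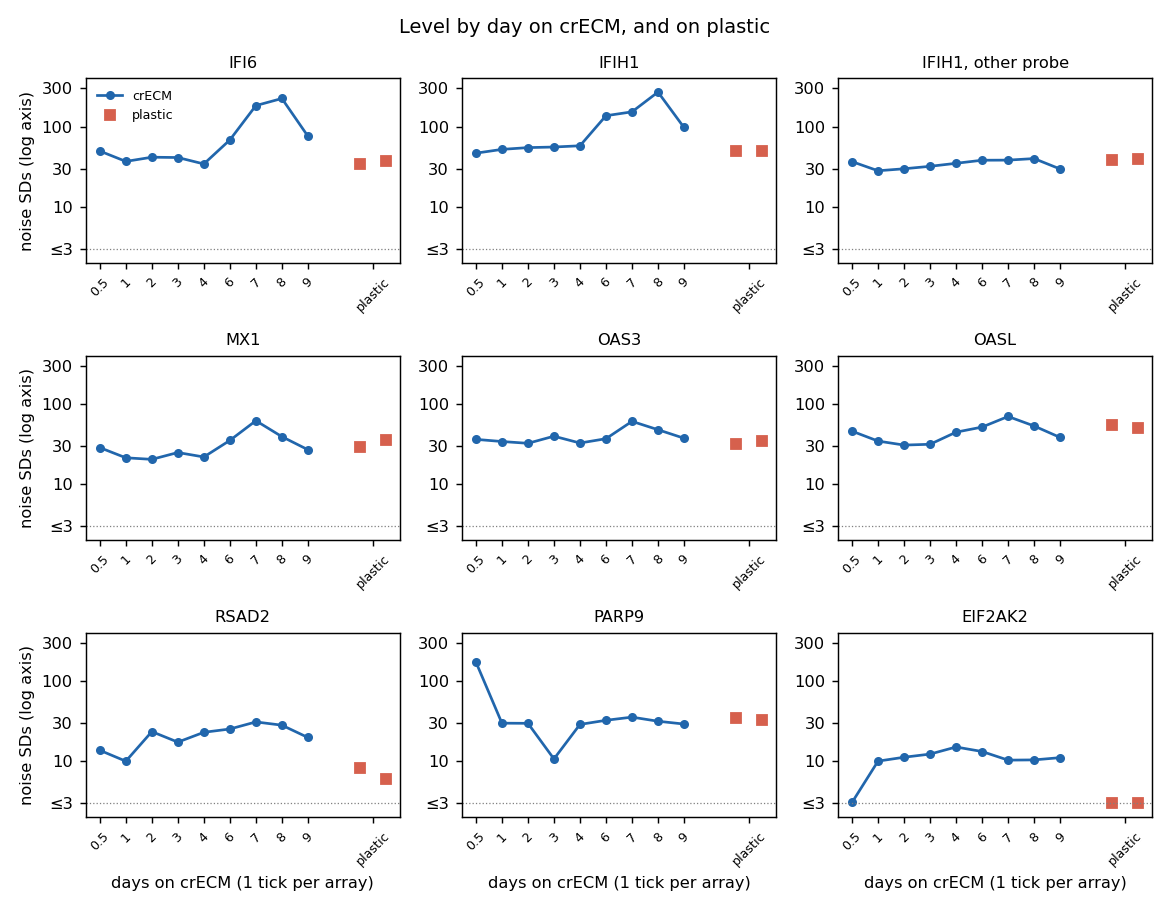
Level in SD (log axis, dotted line at 3 SD) of 8 genes on crECM by day (blue circles, arrays evenly spaced) and on the 2 plastic arrays (red squares), with both probes of IFIH1. IFI6 reaches 225 SD and 1 probe of IFIH1 reaches 271 SD on day 8, MX1, OAS3 and OASL peak on day 7, PARP9 is highest at 12 hours and EIF2AK2 is lowest there.

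The 12 hours group is 1 array, which is assumed to vary like the others. At 12 hours, 2 genes were higher and 2 lower than on days 1 to 9, of 34 tested, a called share of 11.8% against 5.94% of all probes (3.27% higher, 2.67% lower). PARP9 measured 172 SD at 12 hours and 10.7 to 35.4 SD on days 1 to 9, with 34.4 and 32.6 SD on plastic. The 12 hours value was 6.37-fold higher than on days 1 to 9 (log2 2.67 ± 0.49, adjusted p = 0.0115), and PARP9 was called under all alternatives run. Its raw intensity was 1545 at 12 hours, 278 to 567 on days 1 to 9, and 313 and 262 on plastic. ISG15 was higher at 12 hours by 1.25 ± 0.22 on the log2 scale with the 8 later arrays, all under 3 SD, set to the floor (adjusted p = 0.00849), and was not tested in the rebuilt values. EIF2AK2 measured 3.06 SD at 12 hours and 10.0 to 15.0 SD on days 1 to 9. It was 3.78-fold lower at 12 hours (log2 -1.92 ± 0.23, adjusted p = 0.00114), while the log2 change was -0.75 in the rebuilt values (adjusted p = 0.0953), -1.06 without the regression (adjusted p = 0.111) and -0.10 after quantile normalization (adjusted p = 0.838). GBP1 measured 40.9 SD at 12 hours, near the plastic values of 38.2 and 39.2 SD, and 57.3 to 66.5 SD on days 1 to 9 (log2 -0.59 ± 0.08, adjusted p = 0.00165). In the deposited values EIF2AK2 and GBP1 were closer to plastic at 12 hours than on any later day.

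A slope per doubling of time on crECM was called for 0 of 34 genes, against 0.00466% of all probes. At an unadjusted p under 0.05 there were 6 genes, 4 of them with a rising slope, against 8.47% of all probes. The lowest p-values were those of RSAD2, with a log2 slope of 0.28 ± 0.08 per doubling, and IFIH1, with 0.47 ± 0.14, both with an adjusted p of 0.498.

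Of 113 other genes of the interferon pathway listed, 90 were on the array and 88 were tested. On crECM, 14 were higher, 22 lower and 52 not called (40.9% called, against 45.2% of all probes). Over all probes, 22.8% were higher and 22.4% lower, and the counts of single lists below are to be read against these shares. The split of the pathway genes turned with the scaling, to 32 higher and 7 lower of 75 in the rebuilt values. It was 66 and 0 of 75 without the regression and 7 and 4 of 73 after quantile normalization. The split of all probes moved as well, to 8384 higher and 2264 lower in the rebuilt values (55.1% called). It was 15883 and 53 without the regression (81.6%) and 2336 and 2494 after quantile normalization (25.8%). With the filter of 6 arrays above 3 SD the split was 14 higher and 10 lower of 73, against 41.0% of all probes called. The difference from the interferon-stimulated genes was not tested. IFNGR2, RIGI, TICAM1, IRF4, TNFSF10 and NMI are among the 22 lower genes, and all 6 were above 3 SD on no array in the rebuilt values, so they have no value there, after quantile normalization or with the filter of 6 arrays. Their raw plastic intensities of 20.6 to 37.0 lay within 9.2 of the noise peaks at 27.8 and 29.4, and their raw crECM intensities were 21.7 to 102. IFNGR1, MYD88, CXCL9, LY6E, GBP4 and HERC6 are also among the 22 lower genes. In the deposited values they measured at most 3.57 SD on crECM and 3.70 to 9.50 SD on plastic. They too have no value with the filter of 6 arrays, and their raw intensities are not given here. Of 7 interferons tested, IFNW1 rose and 3 fell. IFNW1, a type I interferon, measured 17.9 to 32.2 SD on crECM with a median of 28.2 SD, and 7.66 and 9.79 SD on plastic (log2 1.64 ± 0.22, adjusted p = 0.000109). IFNA8 and IFNA2 fell with log2 changes of -0.45 each (adjusted p of 0.0308 and 0.00894), and both turned in sign without the regression. Of 5 receptor genes tested, 3 fell (IFNGR1, IFNGR2 and IFNAR1) and none rose, where 22.4% of all probes were lower. IFNGR1 was above 3 SD on plastic alone. IFNGR2, a chain of the type II interferon receptor, measured at most 3.18 SD on crECM, and 7.20 and 7.91 SD on plastic in the deposited values (adjusted p = 4.59e-09). Its raw intensities were 53.9 to 86.3 on crECM, and 37.0 and 34.7 on plastic, which is the opposite order. IFNAR1, a chain of the type I receptor, measured 22.7 to 33.2 SD on crECM, and 46.9 and 42.0 SD on plastic (log2 -0.64 ± 0.13, adjusted p = 0.00196), with a log2 change of 0.48 without the regression.

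Of 5 kinases and STATs tested, 2 rose and 1 fell. JAK2 measured 23.0 to 33.7 SD on crECM, and 59.9 and 52.4 SD on plastic, and was 2.03-fold lower (adjusted p = 0.000162). Without the regression its log2 change was -0.07 (adjusted p = 0.781). STAT4 was 1.58-fold higher (adjusted p = 0.0016). The call of JAK1 (log2 1.69 ± 0.62, adjusted p = 0.0457) rests on plastic replicate 2, at 2.46 SD against 28.7 SD in replicate 1, and without it the log2 change was 0.06. Of 15 sensors and adaptors tested, 2 rose and 6 fell. DHX58, the RNA helicase LGP2, measured 14.8 to 21.5 SD on crECM and was at the lowest value of both plastic arrays. Its log2 change against the floor was 2.63 (adjusted p = 3.82e-07), 1.89 with a floor of 5 SD and 1.09 after quantile normalization, and it was also called in the rebuilt values (adjusted p = 7.33e-05). TRAF3 rose by a log2 change of 0.35 (adjusted p = 0.0225), and lost its call without plastic replicate 2 (adjusted p = 0.155). The helicase RIGI measured at most 0.68 SD on crECM, and 5.64 and 5.98 SD on plastic in the deposited values (adjusted p = 1.1e-08). Its raw intensities were 27.0 to 49.7 on crECM, and 27.2 and 23.6 on plastic, at noise on both substrates. TICAM1, the adaptor of TLR3, was under 3 SD on every crECM array and measured 4.47 and 6.31 SD on plastic (adjusted p = 2.63e-05).

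Of 7 regulatory factors tested, IRF4 alone was called, at most 0.163 SD on crECM, and 7.06 and 7.47 SD on plastic (adjusted p = 2.71e-09), with the raw limits given above. Of 9 inhibitors of the pathway, 3 rose and 1 fell. The phosphatase PTPN6 measured 23.2 to 30.6 SD on crECM, and 10.7 and 10.6 SD on plastic, and was 2.50-fold higher (adjusted p = 8.53e-06). PIAS1, a SUMO ligase that restrains the pathway, was 1.62-fold higher (log2 0.69, adjusted p = 0.00257). It lost its call without plastic replicate 2, where its log2 change was 0.56. PTPN1, which acts on JAK2 and TYK2, was 1.56-fold lower (adjusted p = 0.00209), with a log2 change of 0.47 without the regression. Of 40 other interferon-induced genes, 6 rose and 7 fell in the deposited values. Of those that fell, only TRIM22 stayed far above 3 SD on crECM, at 30.7 to 44.8 SD, and 50.9 and 57.2 SD on plastic. TRIM21, an antibody receptor in the cytosol, measured 36.9 to 52.3 SD on crECM, and 17.7 and 14.6 SD on plastic, and was 2.67-fold higher (adjusted p = 7.02e-06). EPSTI1 rose by a log2 change of 1.33 (adjusted p = 0.0167), with 12.6 SD in plastic replicate 1 and under 3 SD in replicate 2, and without replicate 2 its log2 change was 0.29 (adjusted p = 0.402), as it was 0.20 after quantile normalization. The death ligand TNFSF10 and the STAT partner NMI were under 3 SD on every crECM array, and both measured 6.5 and 8.2 SD on plastic (adjusted p of 4.57e-08 and 5.45e-08).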

How the data were processed

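RNA of RT4 cells on crECM or plastic was labeled with Cy3 and measured on one-color arrays of 22464 probes. The authors deposited raw intensity values of each array and log10 values, which they had expressed in SD of the noise peak above its zero point and adjusted by robust linear regression. Log10 values were used as deposited, and raw intensity values only for the alternatives and where named. The members and lists were chosen with earlier results of these data known.

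Values were floored at 3 SD, taken as log2 and fitted with limma 3.58.1 in R 4.3.3 (eBayes with trend), and p-values were adjusted over the 21480 probes that exceeded 3 SD on 2 arrays or more. Where an array is under the floor, the change is against 3 SD on the deposited scale and moves with the scaling, so it is no bound. Genes are named by the platform annotation, updated to GRCh38.p14, by the probe with the highest mean. Of all probes, 17043 had 1 symbol, 172 had several and the rest had none. Python 3.11.15 with numpy 2.4.6 and pandas 2.3.3 was used for counts, and the fit was tested on simulated data.

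Named were up to 10 genes in each direction with the lowest adjusted p on crECM, all called at 12 hours or on day 7, EIF2AK2, USP18, IRF9 and STAT2, and up to 2 called genes in each direction of each pathway list by size of change. Other genes named with values were chosen after these were seen. Alternatives were rebuilt values with and without the regression, quantile normalization, other floors and filters, no trend, array weights, another probe, a threshold of 5 SD and leaving out arrays. The number of arrays limits the precision.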

Additional observations from a re-analysis of the deposited data

Results flagged for a closer look

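In 8 of the 34 tested genes 1 crECM array stood far from the other 8 by Dixon's criterion. Chance flags about 1 in 20 groups, or 1.7 of 34, when the arrays of a group are alike and no values are tied. Here the arrays are different times, values under 3 SD were set to the floor, and genes of an array are not independent. The 8 are therefore not set against that rate. For ISG15 and IFIT1, with 8 arrays at the floor, the flag was fixed in advance. At 12 hours PARP9 was highest, at 171.7 SD against 35.4 SD for the next array, ISG15 measured 7.141 SD and IFIT1 4.663 SD with the other 8 arrays under 3 SD in both genes, EIF2AK2 was lowest, at 3.056 SD against 10.0 SD for the next, and GBP1 was lowest, at 40.92 SD against 57.3 SD. IRF1 measured 142.3 SD on day 4, against 29.2 SD for the next array. USP18 measured 32.28 SD on day 7, against 26.1 SD for the next. BST2 measured 16.99 SD on day 8, against 5.54 SD for the next, with 6 arrays under 3 SD. The cause of these values was not tested.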

How the results depend on the processing

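No paired analysis was possible because the crECM arrays carry no replicate numbers in the labels. Of 935 values of single genes under the alternatives, 863 kept direction and side of the threshold, 58 lost their call, 6 gained one and 8 turned in sign. Of genes higher and lower on crECM (14 and 2), leaving out single arrays gave 7 to 15 and 2 to 5. The 5 lower were OAS2, PARP14, IFIT1, IFI16 and ISG15, without the 12 hours array. Quantile normalization gave 7 higher (25.8% of all probes called in either direction) and no regression 27 and 0 (81.6% of all probes called). A floor of 5 SD, no filter, or leaving out both 12 hours and day 7 gave 4 lower. At 12 hours (2 and 2) rebuilt values gave 1 higher, no regression 1 and 1, quantile normalization 1 lower, no filter 4 higher and a filter of 6 arrays 1 higher. On day 7 (0 and 0) quantile normalization gave 1 higher and no regression 3 lower, and for the slope (0 and 0) no regression gave 1 higher. Pathway genes (14 and 22) gave 32 and 7 in rebuilt values, 66 and 0 without regression, 7 and 4 after quantile normalization and 10 lower with the filter of 6 arrays. Without single arrays they gave 7 to 16 higher and 17 to 23 lower, with 7 without plastic replicate 2. Signs turned without regression for OAS2 (0.47), PARP14 (0.077), MX1 (1.28), IFNA8 (0.88), IFNA2 (0.61), IFNAR1 (0.48) and PTPN1 (0.47), and for MX1 in rebuilt values (0.14). The regression forces arrays of unequal brightness together, and without it the median log2 change over all probes was 1.27, against 0.42 in rebuilt values with it. The cause of the other changes was not tested. With 2 plastic arrays, dim on the raw scale, values near 3 SD on plastic are the least precise.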
